A study of Homo sapiens with 9 samples.

Results

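The genes described here are 35 listed members of the NRF2 antioxidant and pentose phosphate programme, listed by name, with no threshold on a measured value, though with earlier results of these data known. All 35 were found among the 41857 gene IDs of the deposited tables, and all 35 were among the 15108 genes with enough signal to be tested. They were followed in 9 poly(A) RNA libraries of MCF10A, an established non-tumorigenic human mammary epithelial cell line whose genotype is labelled WT. In 3 libraries the cells carried vector only, in 3 they carried deltaNp63alpha and in 3 they carried deltaNp63beta, and these replicate libraries are numbered 1 to 3 in each group. Every sample, vector included, had received 500 ng/mL doxycycline for 24 h, so the vector group is a doxycycline control and no untreated cells were compared. deltaNp63alpha and deltaNp63beta are forms of the transcription factor p63 that lack its N-terminal transactivation domain, share the DNA-binding domain and end differently at the C-terminus. Whether each line was 1 clone or a pool, and whether replicates came from separate cultures, is not given in the sources used here, so p-values measure the spread between these libraries.

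NRF2, encoded by NFE2L2, is a transcription factor that is held at a low level in resting cells. KEAP1 carries it to a ubiquitin ligase for breakdown, and oxidants or electrophiles that modify KEAP1 let NRF2 build up, pair with a small MAF protein and bind antioxidant response elements beside its target genes. These targets make glutathione, recycle thioredoxin, reduce quinones, carbonyls and aldehydes, break down heme, export conjugates, and raise the supply of NADPH, much of which comes from the pentose phosphate pathway. In breast epithelium the pathway is known as a defence against oxidants and xenobiotics.

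Values are the deposited signal per gene, taken here to be normalized estimated counts. A change is a log2 fold change ± SE on the log2(value + 1) scale from 1 limma fit of all 9 libraries and all 15108 genes, and a gene is called higher or lower, or said to have risen or fallen, where its Benjamini-Hochberg adjusted p is under 0.05. Differences between the isoforms are deltaNp63beta minus deltaNp63alpha. The library totals lay between 22.5 and 23.2 M. The depth before normalization, put at 20.4 to 24.5 M fragments, is only a rough estimate, since whole reads were not recovered from the low values. TP63 read 316, 332 and 259 with vector, 4426, 6983 and 6961 with deltaNp63alpha and 6719, 4183 and 4870 with deltaNp63beta, which separates vector from the transgenes but, counted per gene, not the isoforms from each other. The 8 mammary epithelial markers, led by KRT5 and with the transgene TP63 among them, summed to between 73985 and 78802 with vector, 128640 and 133020 with deltaNp63alpha and 247590 and 264090 with deltaNp63beta, while KRT8 fell by 0.30 ± 0.05 (adjusted p = 0.00146) with deltaNp63alpha. The 5 fibroblast markers summed to between 1445 and 1469 with vector, 516 and 626 with deltaNp63alpha and 502 and 542 with deltaNp63beta, most of the difference in DCN, while COL1A1 rose by 0.52 ± 0.17 (adjusted p = 0.0286) with deltaNp63beta. The 5 leukocyte markers summed to between 1353 and 1517, 1025 and 1319, and 1102 and 1224 in that order, mostly CD68. Of the 4 leukocyte markers tested, CD68 and CSF1R fell with deltaNp63beta (-0.86 and -0.91) and CD14 and LAPTM5 rose (2.77 and 0.96), by limma at adjusted p of 1.54e-05, 0.0111, 0.000277 and 0.000604. The 4 endothelial markers summed to between 169 and 230, 139 and 155, and 104 and 127 in the same order. COL3A1, PTPRC and CDH5 were at 0 or below 5 in all 9 libraries. The part of these marker differences in the results below was not tested. In bulk RNA, fewer cells of a type and less RNA per cell cannot be told apart.

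The listed genes were mostly higher with deltaNp63beta. Against vector, 22 of the 35 (62.9%) rose with deltaNp63beta and 3 (8.57%) fell, where 21.8% of all tested genes were called higher and 19.5% lower (41.3% in either direction). With deltaNp63alpha, 3 of the 35 (8.57%) rose, close to the 8.13% of all tested genes, and 10 (28.6%) fell, where 6.37% of all tested genes did (14.5% were called in either direction). Directly between the isoforms, 24 of the 35 (68.6%) were higher with deltaNp63beta and 1 (2.86%) was lower, where all tested genes gave 17.4% and 15.5% (32.9% in either direction). Without any test, the 3 values of a group all lay above those of vector in 23 of the 35 genes with deltaNp63beta and below in 5, where 26.2% and 24.4% of all tested genes did so (50.6% either way). For deltaNp63alpha these counts were 4 above and 14 below, where all tested genes gave 16.7% and 16.8% (33.5% either way). Between the isoforms 23 genes were above and 1 below with deltaNp63beta, where all tested genes gave 22.9% and 21.9% (44.8% either way). The median log2 fold change of the 35 was -0.08 with deltaNp63alpha, 0.36 with deltaNp63beta and 0.46 between the isoforms, while the medians of all tested genes were -0.01, 0.00 and 0.00. Both comparisons against vector use the same 3 vector libraries. GPX2 passed the filter on low values only through the deltaNp63beta libraries, so it could only be higher there, and without it 21 of 34 (61.8%) rose with deltaNp63beta and 23 of 34 (67.6%) were higher there than with deltaNp63alpha. The counts of 23 genes whose deltaNp63beta values all lay above those of vector or of deltaNp63alpha also include GPX2. When a change of more than 1.5-fold was asked for in the test itself, 4 of the 34 other than GPX2 were still called higher with deltaNp63beta (GCLC, AKR1B10, AKR1C1 and PIR), where 3.42% of all tested genes were. With deltaNp63alpha 1 was lower (AKR1C2), where 0.311% of all tested genes were.

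**Figure D1:**
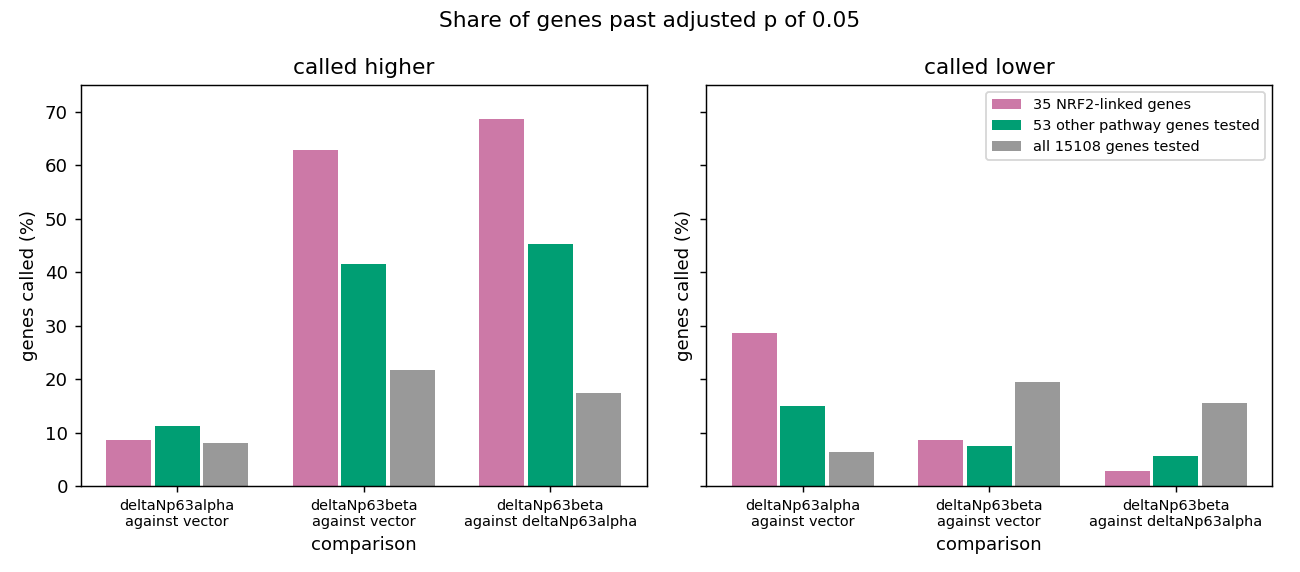
Percent of genes called higher (left) or lower (right) in each comparison, for the 35 listed genes, 53 other tested genes of the same pathways and all 15108 genes tested. With deltaNp63beta against vector the bars for higher calls stand at 62.9%, 41.5% and 21.8%, and with deltaNp63alpha the bars for lower calls stand at 28.6%, 15.1% and 6.37%.

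The genes fell into a few patterns across the 3 comparisons. The most common, with 14 genes or 40.0% (NFE2L2, GSR, GPX2, TXN, PRDX1, PGD, TKT, TALDO1, AKR1B10, AKR1C1, NQO1, ABCC2, PIR and OSGIN1), was higher with deltaNp63beta than with either vector or deltaNp63alpha and no call for deltaNp63alpha against vector, as in 10.6% of all tested genes. GPX2 is counted among the 14, although the filter on low values fixed its direction with deltaNp63beta. In 4 genes (11.4%), ME1, AKR1C2, AKR1C3 and TRIM16, RNA differed from vector in opposite directions with the isoforms, lower with deltaNp63alpha and higher with deltaNp63beta than with vector, a pattern found in 0.596% of all tested genes. GCLC, SRXN1 and BLVRB (8.57%) were higher with both isoforms, as were 6.06% of all tested genes, and higher again with deltaNp63beta. Their libraries stood in the order vector, deltaNp63alpha, deltaNp63beta without overlap, as in 5.35% of all tested genes. SQSTM1, TXNRD1 and ABCC3 were lower with both, as were 4.41% of all tested genes. KEAP1, AKR1B1 and EPHX1 (8.57%) were lower with deltaNp63alpha than with vector and with deltaNp63beta, and showed no call for deltaNp63beta against vector, a pattern of 0.953% of all tested genes. CBR1 was called only with deltaNp63beta against vector and MAFG only between the isoforms, and GCLM, CBR3, UGDH, HMOX1, ABCC1 and TRIM16L were called in none. TRIM16L is counted here by its gene ID with low values. Its other gene ID, with higher values, was called lower with deltaNp63alpha against vector and higher with deltaNp63beta than with deltaNp63alpha.

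**Figure D2:**
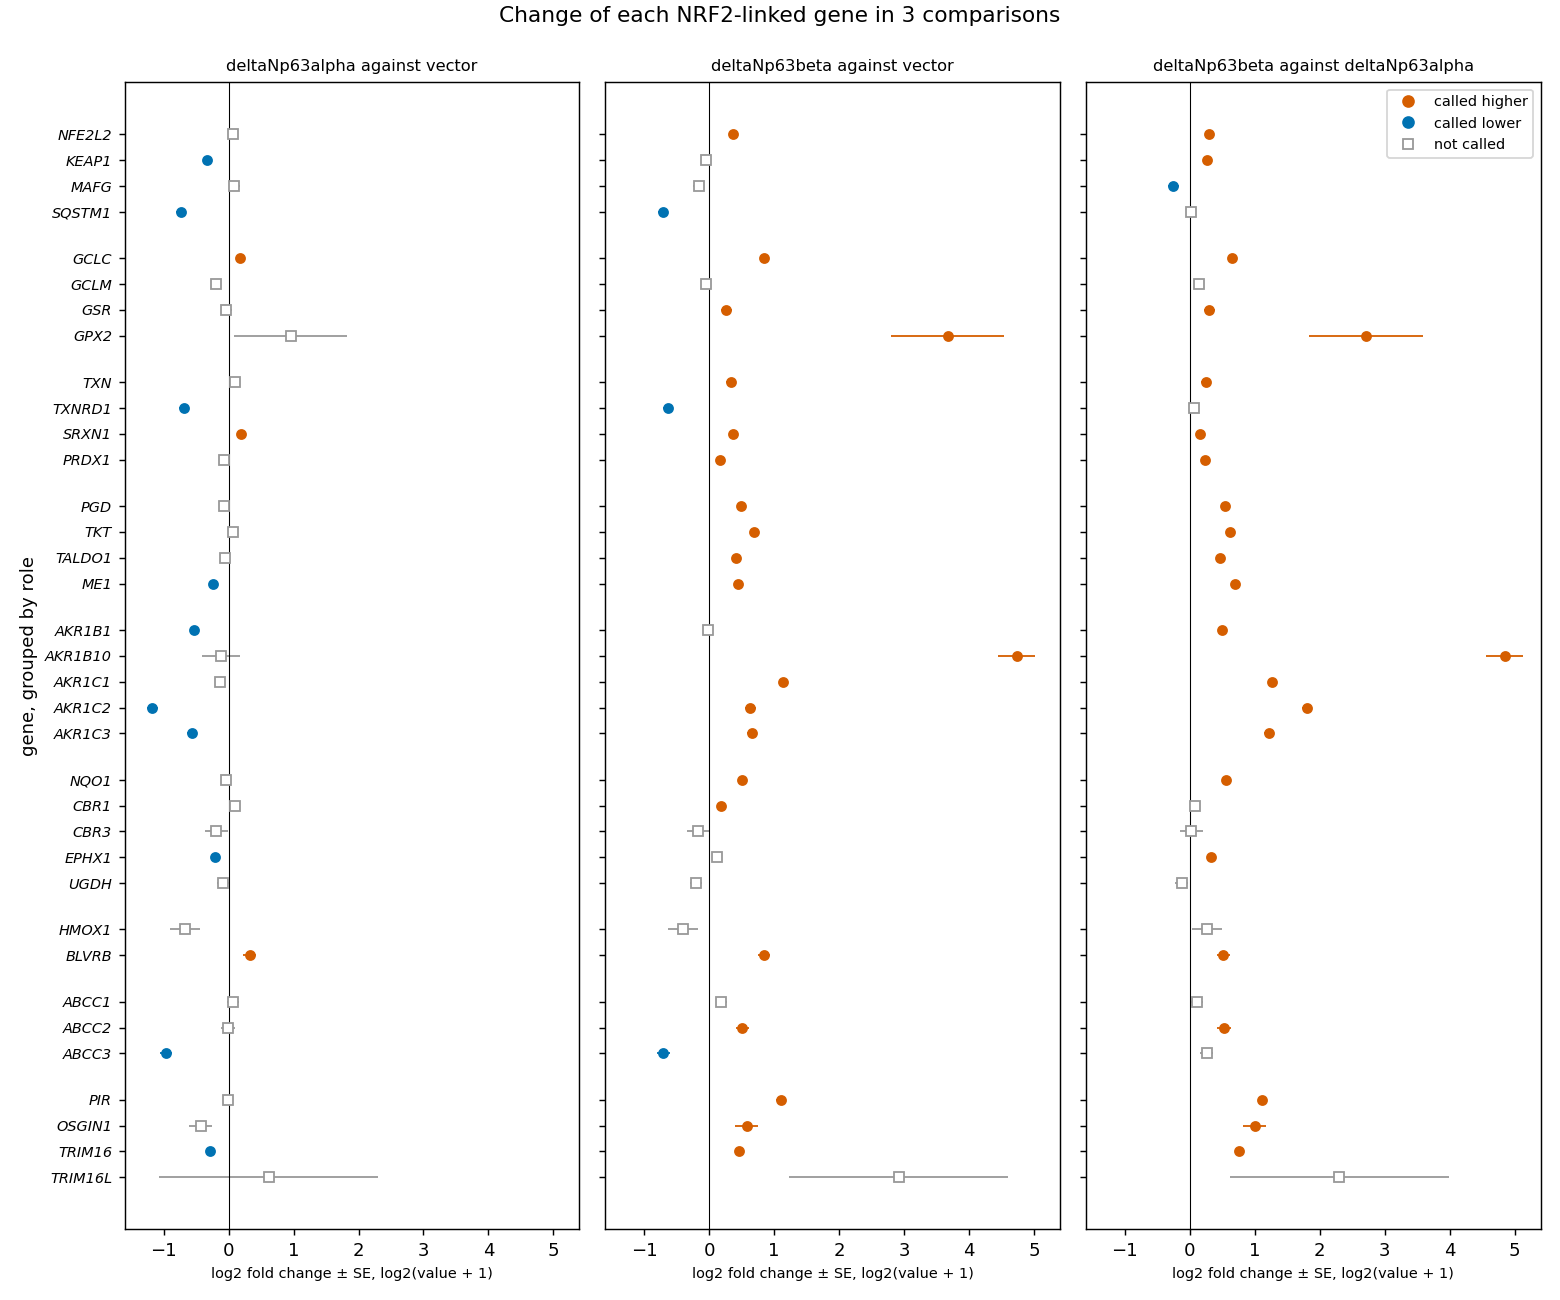
Log2 fold change with SE of each of the 35 genes, in rows by role, for deltaNp63alpha against vector, deltaNp63beta against vector and deltaNp63beta against deltaNp63alpha; filled points were called and open squares were not. The aldo-keto reductase rows spread furthest, from -1.17 for AKR1C2 with deltaNp63alpha to 4.85 for AKR1B10 between the isoforms, and GPX2 and TRIM16L, with low values, have the widest errors.

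Antioxidant response elements are the DNA sites that NRF2 binds with a small MAF protein, and their core, TGACNNNGC, was looked for on both strands of the promoter windows in the RefSeq table of GRCh38.p14. Each window runs from 250 bases before to 50 bases after the start used in that table, and 27 of the 35 genes matched an entry. That start can differ from the GENCODE gene positions given in this report: the PGD window begins at 10398814 and the PGD gene at 10398592. GSR, PRDX1, AKR1B10, HMOX1, CBR3, ABCC1, ABCC3 and TRIM16L did not. The core was present in 7 of the 27 (25.9%), namely GCLM, GPX2, TXNRD1, PGD, ME1, CBR1 and PIR, against 3702 of 27305 promoters in the table (13.6%) and 1607 of 10798 promoters of tested genes (14.9%). It stood in 5 of the 19 (26.3%) listed promoters whose gene rose with deltaNp63beta and in 2 of the other 8 (25.0%). GPX2 is counted among the 5 and the 19, although the filter on low values fixed its direction, and the shares were not compared by a test. A match is a run of letters and not a measured binding site, and a core outside the window would not be seen. The 5 windows printed here all hold the core, while their genes moved differently: PGD and PIR rose with deltaNp63beta alone, ME1 fell with deltaNp63alpha and rose with deltaNp63beta, TXNRD1 fell with both, and GCLM was not called. Capitals mark the core, which reads as its reverse complement where it lies on the opposite strand.
ME1: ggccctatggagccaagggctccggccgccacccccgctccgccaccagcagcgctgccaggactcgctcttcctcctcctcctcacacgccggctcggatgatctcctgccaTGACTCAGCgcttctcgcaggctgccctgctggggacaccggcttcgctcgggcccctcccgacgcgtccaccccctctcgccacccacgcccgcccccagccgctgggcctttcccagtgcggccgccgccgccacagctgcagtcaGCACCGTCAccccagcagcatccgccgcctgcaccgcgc
PIR: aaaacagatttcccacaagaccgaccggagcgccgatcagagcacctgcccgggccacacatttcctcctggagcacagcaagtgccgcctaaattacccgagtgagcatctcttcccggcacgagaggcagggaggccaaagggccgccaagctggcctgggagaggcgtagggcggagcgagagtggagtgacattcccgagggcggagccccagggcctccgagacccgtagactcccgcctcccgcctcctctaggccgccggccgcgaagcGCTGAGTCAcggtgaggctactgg
PGD: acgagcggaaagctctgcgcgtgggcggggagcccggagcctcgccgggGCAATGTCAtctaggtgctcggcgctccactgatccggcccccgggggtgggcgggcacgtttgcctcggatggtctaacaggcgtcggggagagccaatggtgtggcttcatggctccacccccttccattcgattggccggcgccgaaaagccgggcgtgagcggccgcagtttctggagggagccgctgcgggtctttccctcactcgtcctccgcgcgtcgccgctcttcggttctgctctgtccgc
TXNRD1: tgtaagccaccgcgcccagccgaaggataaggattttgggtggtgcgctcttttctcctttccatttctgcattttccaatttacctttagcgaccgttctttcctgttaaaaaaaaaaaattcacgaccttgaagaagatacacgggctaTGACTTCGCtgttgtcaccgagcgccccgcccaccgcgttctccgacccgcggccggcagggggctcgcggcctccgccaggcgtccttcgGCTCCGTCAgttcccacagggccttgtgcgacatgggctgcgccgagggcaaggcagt
GCLM: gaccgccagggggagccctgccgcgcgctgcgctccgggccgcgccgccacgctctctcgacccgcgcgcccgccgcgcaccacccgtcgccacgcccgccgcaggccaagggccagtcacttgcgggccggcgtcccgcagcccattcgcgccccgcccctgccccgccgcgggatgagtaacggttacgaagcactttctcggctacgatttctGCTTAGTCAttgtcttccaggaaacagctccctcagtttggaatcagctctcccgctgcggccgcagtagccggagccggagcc
These windows lie at chr6:83431002-83431301 on the minus strand for ME1, chrX:15493284-15493583 on the minus strand for PIR and chr1:10398814-10399113 on the plus strand for PGD. The TXNRD1 window is chr12:104215529-104215828 on the plus strand and the GCLM window chr1:93909381-93909680 on the minus strand. ME1 and TXNRD1 held the core at 2 places and the others at 1. The match in PIR and 1 of those in ME1 read TGACTCAGC, which overlaps the AP-1 motif TGANTCA.

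Among the regulators, the RNA of NRF2 itself rose with deltaNp63beta and that of its inhibitor KEAP1 fell with deltaNp63alpha. NFE2L2 (ENSG00000116044, GRCh38 chromosome 2, 177227595 to 177392697, minus strand) read 2226, 2367 and 2294 with vector, 2419, 2253 and 2532 with deltaNp63alpha and 3144, 2806 and 2927 with deltaNp63beta. The deltaNp63beta libraries stood above all 6 others, which overlapped. The change was 0.36 ± 0.06 (adjusted p = 0.000465) with deltaNp63beta and 0.06 ± 0.06 (adjusted p = 0.546) with deltaNp63alpha, and the isoforms differed by 0.30 ± 0.06 (adjusted p = 0.00237). KEAP1 (ENSG00000079999, GRCh38 chromosome 19, 10486120 to 10503741, minus strand), the adaptor that hands NRF2 to the ligase, read 2169, 1960.1 and 2051 with vector, 1590.3, 1741 and 1599.7 with deltaNp63alpha and 1844, 2121 and 1999 with deltaNp63beta. All 3 deltaNp63alpha libraries were below the other 6, and the vector and deltaNp63beta libraries overlapped. KEAP1 thus fell by 0.33 ± 0.07 (adjusted p = 0.00646) with deltaNp63alpha and changed by -0.05 ± 0.07 (adjusted p = 0.556) with deltaNp63beta, with an isoform difference of 0.27 ± 0.07 (adjusted p = 0.00801). SQSTM1 (ENSG00000161011, GRCh38 chromosome 5, 179806398 to 179838078, plus strand) encodes p62, an autophagy receptor that binds KEAP1 and is also an NRF2 target. Its values were 7387, 6894 and 7308 with vector, 4736, 4107 and 4117 with deltaNp63alpha and 4212, 4233 and 4687 with deltaNp63beta. Both transgene groups lay below every vector library and overlapped each other. SQSTM1 fell by 0.74 ± 0.06 (adjusted p = 1.55e-05) with deltaNp63alpha and by 0.72 ± 0.06 (adjusted p = 5.02e-06) with deltaNp63beta, and the isoforms differed by 0.02, with a 95% interval from -0.12 to 0.16. MAFG, a small MAF partner of NRF2, averaged 1103 ± 47.0 with vector, 1176 ± 105 with deltaNp63alpha and 987 ± 83.1 with deltaNp63beta (mean ± SD, n = 3). It was the 1 listed gene lower with deltaNp63beta than with deltaNp63alpha (-0.25 ± 0.08, adjusted p = 0.0367), a call that was lost without deltaNp63alpha replicate 2 or 3 or deltaNp63beta replicate 1 or 3 (adjusted p from 0.0547 to 0.139).

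In glutathione synthesis and recycling, the catalytic subunit of glutamate-cysteine ligase rose with deltaNp63beta, while its modifier subunit was not called. GCLC (ENSG00000001084, GRCh38 chromosome 6, 53497341 to 53616970, minus strand), the catalytic subunit of the rate-limiting enzyme, read 2205, 2340.2 and 2373 with vector, 2579, 2484 and 2773 with deltaNp63alpha and 4046, 4084 and 4228 with deltaNp63beta. Every deltaNp63beta library lay above every deltaNp63alpha library, and those lay above every vector library. GCLC rose by 0.84 ± 0.05 (adjusted p = 2.76e-07) with deltaNp63beta and was 0.66 ± 0.05 (adjusted p = 3.68e-06) higher with deltaNp63beta than with deltaNp63alpha. Its small rise with deltaNp63alpha, 0.18 ± 0.05 (adjusted p = 0.0412), missed the threshold when vector replicate 1, 2 or 3, deltaNp63alpha replicate 1 or 3 or deltaNp63beta replicate 2 was left out (adjusted p from 0.0587 to 0.161), and under 4 other settings (0.0599 to 0.102) beside the test against a 1.5-fold change. GCLM, the modifier subunit, averaged 1482 ± 27.5 with vector, 1301 ± 111 with deltaNp63alpha and 1434 ± 51.9 with deltaNp63beta. Its change was -0.05 with deltaNp63beta, with a 95% interval from -0.19 to 0.10, and -0.19 with deltaNp63alpha (interval -0.34 to -0.04, adjusted p = 0.0843), where it was called only without deltaNp63alpha replicate 1 (adjusted p = 0.0468). The difference between the changes of the 2 subunits was not tested.

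GPX2 (ENSG00000176153, GRCh38 chromosome 14, 64939152 to 64942905, minus strand) encodes an epithelial glutathione peroxidase. It read 1.10, 2.90 and 0 with vector, 6.40, 7.03 and 0 with deltaNp63alpha and 23.1, 28.1 and 23.0 with deltaNp63beta. The deltaNp63beta libraries stood above the other 6, in each of which the value was below 10 and in 2 of which it was listed at 0. Since only those libraries brought it into the test, its direction was fixed by the filter, and its fold changes are a description: 3.67 ± 0.87 over vector, which became 1.62 with a pseudocount of 10, and 2.72 ± 0.87 between the isoforms. The latter missed the threshold when deltaNp63alpha replicate 3 was left out (1.73, adjusted p = 0.101) or with a pseudocount of 0.1 (3.89, adjusted p = 0.118). GSR, glutathione reductase, averaged 1767 ± 79.0, 1731 ± 238 and 2122 ± 32.6 in the vector, deltaNp63alpha and deltaNp63beta groups and rose by 0.26 ± 0.08 (adjusted p = 0.0237) with deltaNp63beta. That call was lost without vector replicate 2 or 3 or deltaNp63beta replicate 2 (adjusted p from 0.0600 to 0.0789), and the call between the isoforms (0.30 ± 0.08, adjusted p = 0.0157) without deltaNp63alpha replicate 2 or 3 or deltaNp63beta replicate 2 (0.0501 to 0.0652).

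In the thioredoxin system, the reductase fell with both isoforms, and thioredoxin and 2 enzymes of the peroxiredoxin cycle rose with deltaNp63beta. TXNRD1 (ENSG00000198431, GRCh38 chromosome 12, 104215779 to 104350305, plus strand), cytosolic thioredoxin reductase, read 5440.1, 5804 and 5638 with vector, 3664, 3278 and 3521 with deltaNp63alpha and 3209.7, 3698 and 4054 with deltaNp63beta. Both transgene groups lay below every vector library and overlapped each other. TXNRD1 fell by 0.69 ± 0.08 (adjusted p = 9.39e-05) with deltaNp63alpha and by 0.63 ± 0.08 (adjusted p = 5.46e-05) with deltaNp63beta, and the isoforms differed by 0.06, with a 95% interval from -0.10 to 0.23. The annotation has 2 other genes overlapping it on the same strand, and reads shared with them cannot be told apart here. The same limit holds for NFE2L2, with 6 such genes, and for KEAP1, MAFG, GCLC, SRXN1, OSGIN1, TRIM16 and TRIM16L, with 1 each. TXN, thioredoxin itself, averaged 5894 ± 119 with vector, 6291 ± 199 with deltaNp63alpha and 7487 ± 970.1 with deltaNp63beta, and rose by 0.34 ± 0.08 (adjusted p = 0.00411) with deltaNp63beta. Its difference between the isoforms (0.24 ± 0.08, adjusted p = 0.0295) did not pass when deltaNp63alpha replicate 2 or 3 or deltaNp63beta replicate 1 or 2 was left out (adjusted p from 0.0809 to 0.0860), and it was 0.16 in the absence of deltaNp63beta replicate 1. SRXN1, which repairs overoxidized peroxiredoxins, was ordered without overlap from vector (2419 ± 59.3) through deltaNp63alpha (2773 ± 75.5) to deltaNp63beta (3109 ± 138). It rose by 0.36 ± 0.05 (adjusted p = 0.000110) with deltaNp63beta and by 0.20 ± 0.05 (adjusted p = 0.0175) with deltaNp63alpha, the latter only with vector replicates 1 and 3 and deltaNp63alpha replicates 1 and 3 all present (otherwise adjusted p from 0.0505 to 0.0644). The further difference of 0.16 ± 0.05 (adjusted p = 0.0210) between the isoforms was lost without deltaNp63alpha replicate 2 or 3 or deltaNp63beta replicate 2 or 3 (0.0515 to 0.0731). PRDX1, an abundant peroxiredoxin, averaged 14746 ± 144, 13995 ± 432 and 16519 ± 1185 in the vector, deltaNp63alpha and deltaNp63beta groups, which did not overlap. Its rise of 0.16 ± 0.05 (adjusted p = 0.0206) with deltaNp63beta was small. It was not called with equal library totals (adjusted p = 0.0638), with quantile normalization (which cut it to 0.05, adjusted p = 0.417), without trend and robust moderation (0.0779) or without vector replicate 2 or 3 or deltaNp63beta replicate 1 or 2 (0.0506 to 0.0632).

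The 4 listed genes of the pentose phosphate pathway and malic enzyme rose with deltaNp63beta, by 0.41 to 0.69 on the log2 scale, and all 4 were higher with deltaNp63beta than with deltaNp63alpha. Of all tested genes, 21.8% rose with deltaNp63beta and 17.4% were higher there than with deltaNp63alpha. PGD (ENSG00000142657, GRCh38 chromosome 1, 10398592 to 10420144, plus strand), which makes NADPH in the oxidative branch, read 4424, 4174 and 4416 with vector, 4146, 4047 and 4240.3 with deltaNp63alpha and 5759.9, 6234 and 6222 with deltaNp63beta. The deltaNp63beta libraries lay above the other 6, which overlapped. PGD rose by 0.48 ± 0.05 (adjusted p = 7.88e-06) with deltaNp63beta and changed by -0.07 ± 0.05 (adjusted p = 0.399) with deltaNp63alpha. TKT (ENSG00000163931, GRCh38 chromosome 3, 53224707 to 53256052, minus strand), transketolase of the non-oxidative branch, read 14193, 13460.2 and 13461 with vector, 15049.7, 14263 and 13727 with deltaNp63alpha and 21476, 22222 and 22578 with deltaNp63beta. Again the deltaNp63beta libraries stood clear of the other 6. TKT rose by 0.69 ± 0.04 (adjusted p = 2.26e-07) with deltaNp63beta, and its change with deltaNp63alpha was 0.07 ± 0.04 (adjusted p = 0.357). TALDO1, transaldolase of the same branch, averaged 3028 ± 92.8 with vector, 2913 ± 96.9 with deltaNp63alpha and 4019.9 ± 123 with deltaNp63beta, and rose by 0.41 ± 0.05 (adjusted p = 2.98e-05). ME1 (ENSG00000065833, GRCh38 chromosome 6, 83210389 to 83431071, minus strand), the cytosolic malic enzyme, was the 1 gene of the 4 that also fell with deltaNp63alpha. It read 1367, 1331 and 1295 with vector, 1171, 1106 and 1092 with deltaNp63alpha and 1779.8, 1813 and 1849 with deltaNp63beta. The 3 groups did not overlap, with deltaNp63alpha lowest and deltaNp63beta highest. ME1 fell by 0.25 ± 0.05 (adjusted p = 0.00908) with deltaNp63alpha, rose by 0.45 ± 0.05 (adjusted p = 4.55e-05) with deltaNp63beta and differed by 0.69 ± 0.05 (adjusted p = 2.76e-06) between the isoforms.

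**Figure D3:**
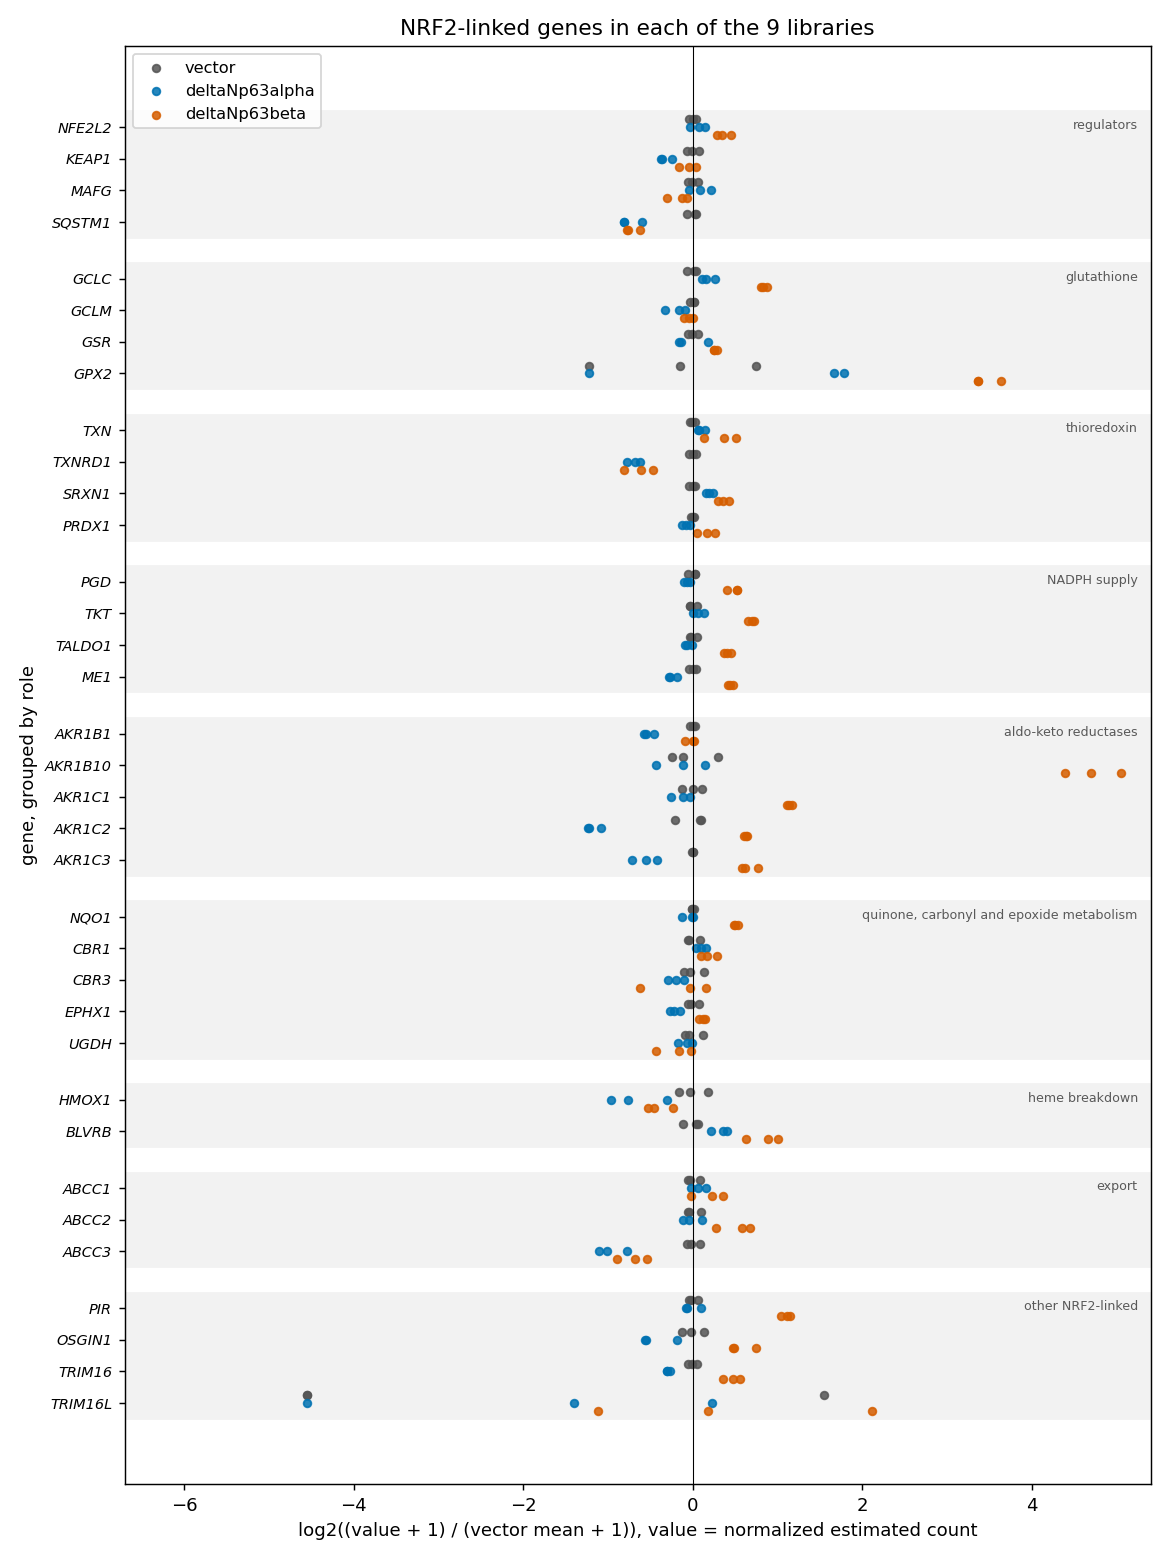
Each of the 35 genes in each of the 9 libraries, as log2 of (value + 1) over (mean of the vector group + 1), with genes in rows by role and 1 point per library. For PGD, TKT, TALDO1 and ME1 the 3 deltaNp63beta points lie to the right of the other 6, and for SQSTM1, TXNRD1 and ABCC3 all 6 transgene points lie to the left of the vector points.

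The aldo-keto reductases, which use NADPH to reduce aldehydes, ketones and steroids, held the largest rise among the 35 genes. AKR1B10 (ENSG00000198074, GRCh38 chromosome 7, 134527592 to 134541408, plus strand), a retinal and aldehyde reductase, read 9.21, 13.9 and 10.2 with vector, 7.98, 10.2 and 12.4 with deltaNp63alpha and 401, 252 and 313 with deltaNp63beta. It stayed between 7.98 and 13.9 in the 6 vector and deltaNp63alpha libraries and was at least 252 in each deltaNp63beta library. The ratio of the deltaNp63beta mean to the vector mean was 29.1, the log2 fold change 4.73 ± 0.29 (adjusted p = 2.33e-07), and the isoforms differed by 4.85 ± 0.29 (adjusted p = 4.08e-07). In the annotated transcripts 18.8% of its 31-base stretches also occur in AKR1B15, which read between 9.42 and 21.0 in the 9 libraries. AKR1B1 (ENSG00000085662, GRCh38 chromosome 7, 134442350 to 134459284, minus strand), aldose reductase, shares no such stretch with AKR1B10 and was not called with deltaNp63beta. It read 5235, 5008 and 5142 with vector, 3740.2, 3497 and 3453 with deltaNp63alpha and 4818, 5149 and 5164 with deltaNp63beta. Its deltaNp63alpha libraries lay below the other 6, which overlapped, so that AKR1B1 fell by 0.53 ± 0.05 (adjusted p = 1.77e-05) with deltaNp63alpha, changed by -0.02 ± 0.05 (adjusted p = 0.706) with deltaNp63beta and was 0.50 ± 0.05 (adjusted p = 1.21e-05) higher with deltaNp63beta than with deltaNp63alpha.

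The AKR1C genes, neighbours on chromosome 10, encode hydroxysteroid and carbonyl reductases. AKR1C1 (ENSG00000187134, GRCh38 chromosome 10, 4963253 to 4983283, plus strand) read 1586, 1742 and 1869 with vector, 1601, 1448 and 1698 with deltaNp63alpha and 3895, 3817 and 3738 with deltaNp63beta. Vector and deltaNp63alpha overlapped, and deltaNp63beta was well above both. AKR1C1 rose by 1.14 ± 0.07 (adjusted p = 2.87e-07) with deltaNp63beta and changed by -0.13 ± 0.07 (adjusted p = 0.274) with deltaNp63alpha. AKR1C2 (ENSG00000151632, GRCh38 chromosome 10, 4987400 to 5018031, minus strand), which inactivates dihydrotestosterone, read 1506, 1233 and 1529 with vector, 671, 610.0 and 603 with deltaNp63alpha and 2226, 2196 and 2161 with deltaNp63beta. No deltaNp63alpha library reached the level of any vector library, and every deltaNp63beta library exceeded all of them. AKR1C2 fell by 1.17 ± 0.08 (adjusted p = 3.29e-06) with deltaNp63alpha, rose by 0.63 ± 0.08 (adjusted p = 0.000102) with deltaNp63beta and differed by 1.80 ± 0.08 (adjusted p = 5.96e-08) between the isoforms. AKR1C3 (ENSG00000196139, GRCh38 chromosome 10, 5035354 to 5107686, plus strand), which forms testosterone and prostaglandins, read 1161, 1147 and 1154 with vector, 861, 699.9 and 786 with deltaNp63alpha and 1964, 1767 and 1729 with deltaNp63beta. Its groups stood in the same order without overlap. AKR1C3 fell by 0.57 ± 0.08 (adjusted p = 0.000585) with deltaNp63alpha and rose by 0.65 ± 0.08 (adjusted p = 5.62e-05) with deltaNp63beta, with an isoform difference of 1.22 ± 0.08 (adjusted p = 7.89e-07).

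Reads of these genes are hard to assign, because 35.06% of the 31-base stretches of AKR1C1 transcripts also occur in AKR1C2 and 47.31% of those of AKR1C2 in AKR1C1. For AKR1C3 the share with the rest of the family was 7.04%. The split between AKR1C1 and AKR1C2 is therefore uncertain, and their sum does not depend on it. AKR1C1 and AKR1C2 together came to 3155 ± 219 with vector, 2210 ± 133 with deltaNp63alpha and 6011 ± 112 with deltaNp63beta (mean ± SD, n = 3). With AKR1C3 added, the sum was 4252, 4122 and 4552 with vector, 3133, 2758 and 3088 with deltaNp63alpha and 8086, 7779 and 7627 with deltaNp63beta. The groups of this sum did not overlap, and its mean was 0.69 times the vector mean with deltaNp63alpha and 1.82 times with deltaNp63beta.

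**Figure D4:**
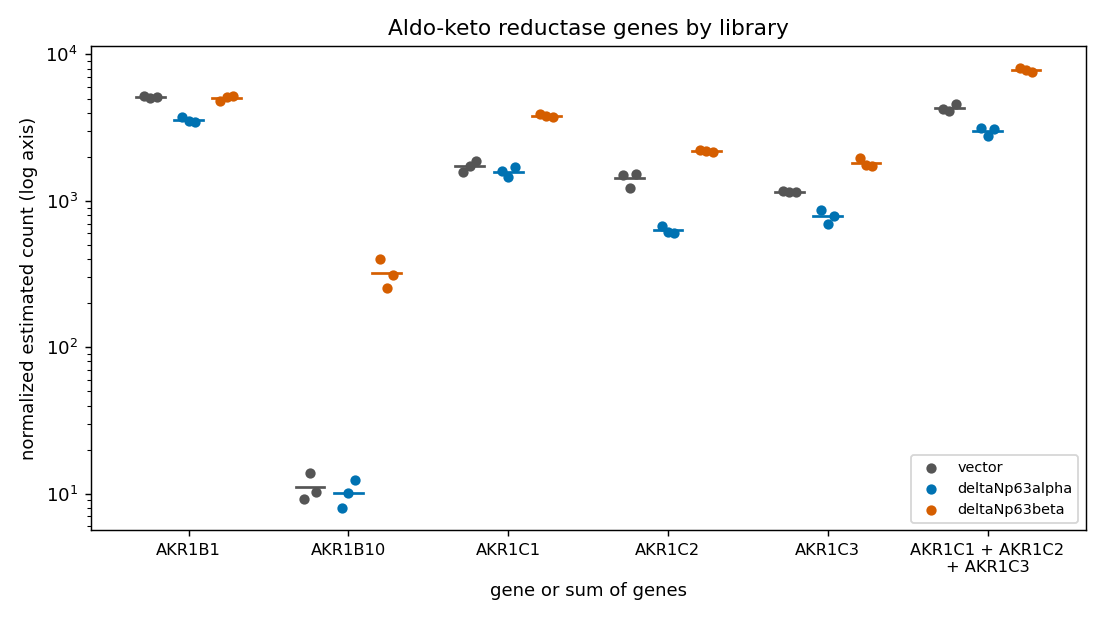
Normalized estimated counts (log axis) of AKR1B1, AKR1B10, AKR1C1, AKR1C2, AKR1C3 and the sum of the AKR1C genes, with 1 point per library and a line at each group's mean. AKR1C2, AKR1C3 and the sum stand in the order deltaNp63alpha, vector, deltaNp63beta without overlap, whereas AKR1B1 with deltaNp63beta overlaps the vector libraries.

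Among the enzymes of quinone, carbonyl and epoxide metabolism, 2 of 5 rose with deltaNp63beta (40.0%, where 21.8% of all tested genes did) and 1 fell with deltaNp63alpha (20.0%, where 6.37% did). NQO1 (ENSG00000181019, GRCh38 chromosome 16, 69706996 to 69726951, minus strand), the quinone reductase most often used as an NRF2 readout, read 5574, 5572 and 5635 with vector, 5630.1, 5106 and 5558 with deltaNp63alpha and 7862, 8079.8 and 7928 with deltaNp63beta. The deltaNp63beta libraries stood above the other 6, which overlapped. NQO1 rose by 0.51 ± 0.04 (adjusted p = 3.14e-06) with deltaNp63beta, and its change with deltaNp63alpha was -0.04, with a 95% interval from -0.14 to 0.05. EPHX1, microsomal epoxide hydrolase, averaged 2047 ± 92.2 with vector, 1769 ± 74.3 with deltaNp63alpha and 2216 ± 56.2 with deltaNp63beta, with no overlap between groups. It fell by 0.21 ± 0.05 (adjusted p = 0.0214) with deltaNp63alpha, a call lost without vector replicate 1 or 3 or deltaNp63alpha replicate 2 or 3 (adjusted p from 0.0503 to 0.0874), and was 0.33 ± 0.05 (adjusted p = 0.000744) higher with deltaNp63beta than with deltaNp63alpha. CBR1, a carbonyl reductase, rose by 0.18 ± 0.06 (adjusted p = 0.0358) with deltaNp63beta, not called with equal library totals (adjusted p = 0.0759) or without vector replicate 1 or 2 or deltaNp63beta replicate 2 or 3 (0.0599 to 0.139). CBR3, its relative, averaged 213, 187 and 195 in the vector, deltaNp63alpha and deltaNp63beta groups and was not called. UGDH, which makes the sugar donor for glucuronidation, averaged 1411 ± 112, 1334 ± 73.7 and 1233 ± 176 in the same order and was called only with deltaNp63beta against vector when deltaNp63beta replicate 3 was left out (adjusted p = 0.0310).

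Of the pair of heme breakdown genes, BLVRB rose with deltaNp63beta and HMOX1 was not called. BLVRB (ENSG00000090013, GRCh38 chromosome 19, 40447765 to 40465840, minus strand), biliverdin reductase B, read 613, 549 and 621 with vector, 689, 761 and 788 with deltaNp63alpha and 1103, 1191 and 922 with deltaNp63beta. Vector was lowest and deltaNp63beta highest, with no overlap. BLVRB rose by 0.84 ± 0.10 (adjusted p = 4.65e-05) with deltaNp63beta and was 0.52 ± 0.10 (adjusted p = 0.00218) higher with deltaNp63beta than with deltaNp63alpha. Its rise of 0.33 ± 0.10 (adjusted p = 0.0498) with deltaNp63alpha was at the edge of the threshold and missed it when any vector or deltaNp63alpha library or deltaNp63beta replicate 1 was left out (adjusted p from 0.0502 to 0.162), and under 6 other settings (0.0509 to 0.103) beside the test against a 1.5-fold change, the replicate block among them. HMOX1, heme oxygenase and a classical stress-induced target, was low throughout, at 68.5 ± 8.26 with vector, 43.4 ± 10.8 with deltaNp63alpha and 51.6 ± 5.68 with deltaNp63beta. All 6 transgene values were below the vector values, with changes of -0.67 ± 0.23 (adjusted p = 0.0811) with deltaNp63alpha and -0.40 ± 0.23 (adjusted p = 0.191) with deltaNp63beta, and the former was called without deltaNp63alpha replicate 2 (adjusted p = 0.0466).

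The export pumps, which move glutathione and glucuronide conjugates out of cells, held 1 gene that rose with deltaNp63beta, 1 that fell with both isoforms and 1 that was not called. Of all tested genes, 21.8% rose with deltaNp63beta and 4.41% fell with both isoforms, so these counts of 1 describe single genes and not the group. ABCC2 (ENSG00000023839, GRCh38 chromosome 10, 99782640 to 99852594, plus strand) read 672, 600.2 and 605 with vector, 677, 606 and 577 with deltaNp63alpha and 757, 941 and 997 with deltaNp63beta. The deltaNp63beta libraries were higher than the other 6, and ABCC2 rose by 0.51 ± 0.11 (adjusted p = 0.00257), with an isoform difference of 0.53 ± 0.11 (adjusted p = 0.00301). ABCC3 (ENSG00000108846, GRCh38 chromosome 17, 50634777 to 50692252, plus strand) read 3050.3, 3146 and 3411 with vector, 1491, 1868 and 1586 with deltaNp63alpha and 1726, 1991 and 2201 with deltaNp63beta. Its transgene libraries were all below the vector libraries. ABCC3 fell by 0.96 ± 0.10 (adjusted p = 5.25e-05) with deltaNp63alpha and by 0.70 ± 0.10 (adjusted p = 0.000164) with deltaNp63beta, and the isoforms differed by 0.26 ± 0.10 (adjusted p = 0.0653), which was called without deltaNp63alpha replicate 2 (adjusted p = 0.0205) or deltaNp63beta replicate 1 (0.0172). ABCC1 averaged 1585 ± 84.8, 1667 ± 102 and 1816 ± 241 in the vector, deltaNp63alpha and deltaNp63beta groups and was called higher with deltaNp63beta only without its replicate 1 (adjusted p = 0.00943 against vector and 0.0434 against deltaNp63alpha).

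The remaining genes are targets outside those pathways. PIR (ENSG00000087842, GRCh38 chromosome X, 15384799 to 15493564, minus strand), which encodes the nuclear iron-binding protein pirin, read 550.1, 562 and 594 with vector, 538, 544 and 606 with deltaNp63alpha and 1266, 1172 and 1230.0 with deltaNp63beta. Vector and deltaNp63alpha overlapped, and no deltaNp63beta library came below 1172. PIR rose by 1.10 ± 0.07 (adjusted p = 4.21e-07) with deltaNp63beta, changed by -0.02 ± 0.07 (adjusted p = 0.919) with deltaNp63alpha and differed by 1.12 ± 0.07 (adjusted p = 7.69e-07) between the isoforms. OSGIN1 (ENSG00000140961, GRCh38 chromosome 16, 83948282 to 83966332, plus strand), an oxidative-stress-induced growth inhibitor, read 81.2, 75.5 and 90.1 with vector, 56.0, 55.3 and 72.5 with deltaNp63alpha and 115, 139 and 116 with deltaNp63beta. The groups did not overlap, with deltaNp63alpha lowest and deltaNp63beta highest. OSGIN1 rose by 0.58 ± 0.18 (adjusted p = 0.0230) with deltaNp63beta, a call lost without vector replicate 1 or 2 or deltaNp63beta replicate 2 (adjusted p from 0.0557 to 0.0897), and changed by -0.43 ± 0.18 (adjusted p = 0.146) with deltaNp63alpha. The isoforms differed by 1.00 ± 0.18 (adjusted p = 0.00133). TRIM16 (ENSG00000221926, GRCh38 chromosome 17, 15627960 to 15684311, minus strand), a member of the tripartite motif family, read 1397, 1500.0 and 1444 with vector, 1201, 1172 and 1172 with deltaNp63alpha and 1856, 2009 and 2127 with deltaNp63beta. Here too the groups stood apart in the order deltaNp63alpha, vector, deltaNp63beta. TRIM16 fell by 0.29 ± 0.06 (adjusted p = 0.00715) with deltaNp63alpha, rose by 0.46 ± 0.06 (adjusted p = 9.32e-05) with deltaNp63beta and differed by 0.75 ± 0.06 (adjusted p = 3.77e-06) between the isoforms. In all, 7 of the 35 genes (20%) stood in that order without overlap (PRDX1, ME1, AKR1C2, AKR1C3, EPHX1, OSGIN1 and TRIM16), where 1.67% of all tested genes did. TRIM16L, a shorter relative of TRIM16, carries its symbol on 2 gene IDs in the tables, and the ID with an annotated position (ENSG00000108448) read between 0 and 101 and was called only with deltaNp63beta against vector in the absence of vector replicate 2 (adjusted p = 0.0150). The other, ENSG00000291110, read 490.4, 467 and 489 with vector, 383, 301 and 350.3 with deltaNp63alpha and 576, 608 and 485 with deltaNp63beta, lower with deltaNp63alpha than with vector (-0.49 ± 0.11, adjusted p = 0.0127) and higher with deltaNp63beta than with deltaNp63alpha (0.69 ± 0.11, adjusted p = 0.000702). Of the 31-base stretches of TRIM16, 38.95% also occur in TRIM16L, so reads of this pair are uncertain as well.

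The other genes of the same pathways, 56 listed by role, gave 53 that could be tested, and GSTM3, GGT1 and ME3 were too low. Of the 53, 22 (41.5%) rose and 4 (7.55%) fell with deltaNp63beta, 6 (11.3%) rose and 8 (15.1%) fell with deltaNp63alpha, and 24 (45.3%) were higher and 3 (5.66%) lower with deltaNp63beta than with deltaNp63alpha. Their median log2 fold changes were 0.19, -0.04 and 0.22 in that order. All tested genes gave 21.8% higher and 19.5% lower with deltaNp63beta, 8.13% and 6.37% with deltaNp63alpha, and 17.4% and 15.5% between the isoforms. Both sets thus held a larger share of higher calls with deltaNp63beta than all tested genes. The 11.3% that rose with deltaNp63alpha was near the 8.13% of all tested genes.

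Among 14 tested glutathione genes, 6 (42.9%) rose and 1 (7.14%) fell with deltaNp63beta, where 21.8% and 19.5% of all tested genes did. The gene that fell was GPX4, named after its values were seen, and the median of the 14 was 0.21. GSTP1, a glutathione transferase, rose with both isoforms, from 13326 ± 195 with vector to 20197 ± 775 with deltaNp63alpha (0.60 ± 0.06, adjusted p = 3.06e-05) and 24627 ± 2146 with deltaNp63beta (0.88 ± 0.06, adjusted p = 3.64e-07). SLC7A11, the cystine importer that feeds glutathione synthesis, did likewise, by 0.47 ± 0.07 (adjusted p = 0.00120) and 0.92 ± 0.07 (adjusted p = 2.02e-06). CHAC1, which degrades glutathione, rose by 1.82 ± 0.23 (adjusted p = 0.000261) with deltaNp63alpha and 1.94 ± 0.23 (adjusted p = 4.66e-05) with deltaNp63beta, and its isoform difference was 0.12, with a 95% interval from -0.38 to 0.62.

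Of 9 further thioredoxin and peroxiredoxin genes, 5 (55.6%) rose and 0 fell with deltaNp63beta by limma, where 21.8% and 19.5% of all tested genes did. At an unadjusted p under 0.05, 0 of these genes were lower there. TXNIP, which binds and inhibits thioredoxin, rose from 4072 ± 71.6 with vector to 7059.8 ± 90.6 with deltaNp63beta (0.79 ± 0.04, adjusted p = 5.53e-08) and was 3966 ± 158 with deltaNp63alpha. PRDX3, the mitochondrial peroxiredoxin, rose by 0.43 ± 0.04 (adjusted p = 7.62e-06), and TXN2, mitochondrial thioredoxin, by 0.24 ± 0.06 (adjusted p = 0.00807).

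Of 7 tested NADPH and pentose phosphate genes, 3 (42.9%) rose and 1 (14.3%) fell with deltaNp63beta, where 21.8% and 19.5% of all tested genes did. ME2, IDH1 and H6PD rose, and IDH2, named after its values were seen, fell. ME2, mitochondrial malic enzyme, rose by 0.71 ± 0.05 (adjusted p = 9.37e-07) with deltaNp63beta and by 0.25 ± 0.05 (adjusted p = 0.00796) with deltaNp63alpha. IDH1, the cytosolic NADP-dependent isocitrate dehydrogenase, rose by 0.53 ± 0.05 (adjusted p = 7.7e-06) with deltaNp63beta. H6PD, which makes NADPH in the endoplasmic reticulum, fell by 0.33 ± 0.07 (adjusted p = 0.00721) with deltaNp63alpha and was 0.52 ± 0.07 (adjusted p = 0.000166) higher with deltaNp63beta than with deltaNp63alpha, while its rise over vector with deltaNp63beta (0.19 ± 0.07, adjusted p = 0.0421) was lost without vector replicate 1, 2 or 3, deltaNp63alpha replicate 3 or deltaNp63beta replicate 1 or 3 (adjusted p from 0.0543 to 0.148), with the replicate block (0.0707) and under 4 other settings (0.0681 to 0.0897) beside the test against a 1.5-fold change. IDH2 changed by -0.24 ± 0.08 (adjusted p = 0.0318) with deltaNp63beta, lost without vector replicate 1 or 2 or deltaNp63beta replicate 1 or 3 (0.0564 to 0.106), with no filter on low values (0.0545) or without trend and robust moderation (0.0503). The other 3 of the 7, PGLS, RPIA and RPE, also named after their values were seen, were not called against vector: their changes with deltaNp63beta were 0.19 ± 0.08 (adjusted p = 0.0690), -0.08 ± 0.10 (adjusted p = 0.538) and 0.18 ± 0.07 (adjusted p = 0.0606).

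Of 7 other regulators, 2 (28.6%) rose and 1 (14.3%) fell with deltaNp63beta, near the 21.8% and 19.5% of all tested genes. MAFK, a small MAF partner of NRF2, rose by 0.33 ± 0.08 (adjusted p = 0.0123) with deltaNp63alpha and 0.50 ± 0.08 (adjusted p = 0.000313) with deltaNp63beta, and NFE2L1, the NRF2 relative NRF1, rose by 0.21 ± 0.06 (adjusted p = 0.0122) with deltaNp63beta. MAFF, another small MAF, fell by 0.32 ± 0.09 (adjusted p = 0.0135) with deltaNp63beta, a call lost without deltaNp63beta replicate 1 (adjusted p = 0.0509). Of 13 detoxification, heme and iron genes, 4 (30.8%) rose and 1 (7.69%) fell with deltaNp63beta, where 21.8% and 19.5% of all tested genes did, and 1 (7.69%) rose and 4 (30.8%) fell with deltaNp63alpha, where 8.13% and 6.37% did. ALDH3A1, an aldehyde dehydrogenase, averaged 198 ± 26.7 with vector, 135 ± 11.0 with deltaNp63alpha and 457 ± 31.7 with deltaNp63beta. It rose by 1.21 ± 0.13 (adjusted p = 2.01e-05) with deltaNp63beta and fell by 0.54 ± 0.13 (adjusted p = 0.0149) with deltaNp63alpha, the latter lost without vector replicate 3 or deltaNp63alpha replicate 2 (adjusted p = 0.0603 and 0.0550). ALDH3A2, which oxidizes fatty aldehydes, rose by 0.66 ± 0.04 (adjusted p = 5.25e-07) with deltaNp63beta. FTH1, the ferritin heavy chain, fell with both isoforms, from 49217 ± 2125 with vector to 27339 ± 464 with deltaNp63alpha (-0.85 ± 0.04, adjusted p = 1.39e-07) and 38441 ± 1342 with deltaNp63beta (-0.36 ± 0.04, adjusted p = 2.6e-05). Of the 3 superoxide and peroxide enzymes, SOD2, the mitochondrial superoxide dismutase, fell by 0.46 ± 0.05 (adjusted p = 4.97e-05) with deltaNp63alpha and rose by 0.74 ± 0.05 (adjusted p = 2.85e-07) with deltaNp63beta. SOD1, the cytosolic enzyme, rose by 0.32 ± 0.07 (adjusted p = 0.00388) with deltaNp63beta, and CAT, catalase, was called only between the isoforms (0.34 ± 0.09, adjusted p = 0.0146), a call lost without deltaNp63alpha replicate 2 or deltaNp63beta replicate 1 (adjusted p = 0.0606 and 0.0504).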

How the data were processed

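Poly(A) RNA libraries were made from 9 samples of MCF10A cells, 3 per group. The deposited signal values were taken to be the authors' normalized estimated counts per gene, a reading drawn from the values that the sources used here do not state. The submitters' processing notes name kallisto 0.46.2, DESeq2 (version not given) and GRCh38 without their roles. Whole reads were not recovered from the low values: within 0.1 step, 60.9% to 63.6% of the low values (those reaching 20 steps at most) were whole. Each group was compared by limma 3.58.1 (R 4.3.3, trend and robust moderation) on log2(value + 1), in 1 fit of the 15108 genes with at least 10 in at least 3 libraries. The fit was also run on simulated whole counts whose spread followed the same rule for every gene, unlike the deposited values. That run does not bear on the calls of single genes. The pseudocount makes fold changes of low genes too small. Positions came from GENCODE 29, and 24 of the 35 genes overlap another annotated gene, 9 on the same strand. Whether reads were counted by strand is not given in the sources used here.

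Members, pathway lists and tests were chosen with earlier results of these data known. Every member could be named, and 1 further gene of the NADPH list is not reported here. Values per library were given for members called with an absolute log2 fold change of at least 0.5 and for NFE2L2 and KEAP1, and up to 3 genes of each further list by smallest adjusted p. Alternatives were 3 scalings, 2 filters, 2 pseudocounts, fewer groups, a replicate block, a test against 1.5-fold, no trend, leaving out each library and, added after seeing the data, the other gene ID of TRIM16L. Tables were read with pandas 2.3.3 and numpy 2.4.6 (Python 3.11.15), and figures drawn in matplotlib 3.10.9.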

Additional observations from a re-analysis of the deposited data

How the results depend on the processing

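The counts of called genes with deltaNp63beta against vector held under most alternatives, and the count of those that rose with deltaNp63alpha moved under more of them. The 3 genes higher with deltaNp63alpha became 1 with equal library totals or no filter on low values, and 0 without trend and robust moderation or in the test against a 1.5-fold change (3 and 0 at an unadjusted p under 0.05). Under that 1.5-fold test, 1 gene was lower with deltaNp63alpha, 5 were higher (4 without GPX2) and 0 lower with deltaNp63beta against vector (1 unadjusted), and 5 were higher and 0 lower between the isoforms (0 unadjusted). By the same test 0.311% of all tested genes were lower with deltaNp63alpha and 3.42% higher with deltaNp63beta against vector. That share was not taken between the isoforms, so the count of 5 there cannot be weighed against all tested genes. The 1 gene lower with deltaNp63beta than with deltaNp63alpha, MAFG, became 0 with no filter, with only the 2 groups compared and without trend and robust moderation (1 unadjusted in each). Leaving out each library in turn gave 0 to 3 genes higher and 9 to 11 lower with deltaNp63alpha, 17 to 22 higher and 3 to 4 lower with deltaNp63beta, and 20 to 24 higher and 0 to 1 lower between the isoforms; where these were 0, 3 or 4 genes for deltaNp63alpha and 0 to 2 between the isoforms passed unadjusted. Apart from left-out libraries and the 1.5-fold test, 11 calls of the 35 genes were lost under at least 1 alternative: GCLC, SRXN1, EPHX1 and BLVRB with deltaNp63alpha, GSR, PRDX1 and CBR1 with deltaNp63beta, and MAFG, GPX2, TXN and SRXN1 between the isoforms. No listed gene changed sign with a call under any alternative run. The scalings moved the median of all genes by at most 0.04 on the log2 scale. With a replicate block the counts were 2 and 10, 22 and 3, and 25 and 1 (higher and lower, in the same order): BLVRB with deltaNp63alpha was lost (adjusted p = 0.0900) and ABCC3 between the isoforms was gained (0.0350). No pairing by number was seen: residuals of same-numbered libraries correlated at -0.12 to 0.08, and 2 of 9 libraries correlated best with their own number. This does not show that same-numbered libraries were prepared apart. With the other gene ID of TRIM16L, chosen after seeing the data, the counts were 3 and 11, 22 and 3, and 25 and 1. Where counts moved, the cause was not tested.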
